A study of Mus musculus with 106 samples.

Results

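The 10 genes Sorl1, Otop1, Aspg, Kng2, Lgr6, Ankef1, Ptger3, Slc36a2, Mrap and Kcnk3 were read by their symbols from 4 tables of gene counts, which list 21647 to 23420 genes each. They were grouped as genes enriched in brown fat that are studied less than the thermogenic markers. All 10 were found in each table. They were selected on measured levels in these same data, by their group name the level in brown fat, so levels across tissues are given as a description without a test. Temperature was tested in fits over all expressed genes, and since its results were known when the genes were picked, those tests are no independent support for the choice.

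The samples were bulk RNA libraries from male C57BL/6J mice, 106 in all. Mice of the cold experiment were kept at 10 °C for 2 weeks after stepwise cooling (18 °C, then 14 °C, each for 5 days), and their controls stayed at 22 °C (age label week 11). Mice of the warm experiment stood at 34 °C for 4 weeks, with their own controls at 22 °C (age label 12 weeks). Interscapular brown fat (iBAT), inguinal subcutaneous fat (ingSAT) and perigonadal visceral fat (pgVAT) of the cold experiment had 3 libraries at each temperature, each pooled from 2 mice per the study's methods. The 34 °C iBAT had 3 libraries against 3 from its own controls. The study's methods describe these as pools of 2 mice, while its sample list gives single mice for the controls and for all but 1 library at 34 °C, so the sources differ. Quadriceps had 3 libraries at 10 °C, 3 at 34 °C and 6 at 22 °C, which both quadriceps comparisons share, all with the age label 12 weeks. Column names carry the prefix QM at 10 °C, QC at 34 °C and either at 22 °C. The labels do not say which experiment each control belongs to. Controls of both experiments, whose mice came from different suppliers, may thus be pooled. Bone marrow had 6 and spinal cord 5 single mice in each group. The other tissues had 3 libraries in each group. The iBAT libraries of the cold and warm experiments came from mice of different suppliers and were made with different kits, so iBAT at 10 °C and at 34 °C were never fitted together.

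Library totals ran from 4262403 to 62880248 counts, with the smallest in pgVAT at 22 °C. Several libraries held RNA that their tissue label does not name. The brain library of replicate 2 at 22 °C had a summed hepatocyte marker level of 65570 CPM (counts scaled by sequencing depth), against 733.8 to 1102 in the other 5 brain libraries. In pgVAT at 10 °C the epididymis marker sum was 22130 and 25990 CPM in 2 libraries and 3.589 CPM in the other, while it ran from 764.7 to 2590 CPM at 22 °C. The pgVAT library of replicate 3 at 22 °C carried 308 CPM of Ucp1, against 1.19 and 3.74 CPM in the other pgVAT controls. The liver library of replicate 3 at 22 °C had 77.9 CPM of Ucp1 against 1.26 and 1.27 CPM in the other liver controls. In iBAT the skeletal muscle sum was lower at 10 °C (2816 to 5663 CPM) than at 22 °C (7015 to 10320 CPM), and 8 of the 10 muscle markers were called lower. Adipocyte markers were high in all fat libraries, and the brown list led by Ucp1 was highest in iBAT.

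Brown adipocytes burn fuel for heat through Ucp1, a mitochondrial carrier that lets protons back into the matrix, and noradrenaline acting through cyclic AMP switches the programme on. Inguinal fat can take on brown-like adipocytes in the cold, and perigonadal fat does so far less readily. The 10 genes sit around this programme in different places. Ptger3 (the EP3 receptor of prostaglandin E2, which lowers cyclic AMP), Lgr6 (an R-spondin receptor that strengthens Wnt signals) and Mrap (the accessory protein that carries the corticotropin receptor Mc2r to the surface) belong to signalling. Kng2 encodes a kininogen, the precursor of kinin peptides, and Sorl1 a sorting receptor of the VPS10 family that moves cargo between endosomes and the Golgi. Otop1 (a proton channel), Kcnk3 (the potassium leak channel TASK-1) and Slc36a2 (a proton-coupled transporter of small amino acids) move ions and nutrients across membranes. Aspg is an asparaginase, and Ankef1 encodes a protein with ankyrin repeats and an EF-hand.

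On GRCm38 with GENCODE M21 all 10 are protein-coding genes. Sorl1 lies on chromosome 9 from 41964720 to 42124297 on the minus strand, with 11321 bases of merged exons. Aspg lies on chromosome 12 from 112106679 to 112127559 on the plus strand and Kng2 on chromosome 16 from 22985854 to 23029482 on the minus strand. Mrap shares chromosome 16, and Otop1 and Kcnk3 share chromosome 5. Kng2 is the uncertain one in a count table: 19.4% of its 50-base stretches also occur in transcripts of its paralog Kng1, so reads of one could be assigned to the other or dropped. For Slc36a2 the share was 2.75%, with Slc36a1. Kcnk3 overlaps exons of the opposite-strand transcript Gm9899 over 229 bases and Sorl1 those of Gm16214 over 185 bases, and libraries without strand cannot tell such reads apart.

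RefSeq promoter windows on GRCm38.p6, from 250 bases before to 50 after the start, were at hand for 7 of the 10 genes. Those of Sorl1, Aspg and Kng2 are printed because these genes had the 3 largest changes in iBAT at 10 °C. Capitals mark matches to the motifs searched on both strands: the cyclic AMP response element TGACGTCA, its core TGACG, the nuclear receptor core AGGTCA, the ERR element TCAAGGTCA (which holds AGGTCA) and the C/EBP element TTGCNNAA.
Sorl1, chr9:42124248-42124547, minus strand: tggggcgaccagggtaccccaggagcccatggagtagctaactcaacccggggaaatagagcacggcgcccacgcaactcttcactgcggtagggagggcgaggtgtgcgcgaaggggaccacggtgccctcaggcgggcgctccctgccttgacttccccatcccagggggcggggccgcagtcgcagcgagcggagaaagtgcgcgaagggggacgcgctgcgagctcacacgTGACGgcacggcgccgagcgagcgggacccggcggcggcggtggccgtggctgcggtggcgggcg
Aspg, chr12:112106433-112106732, plus strand: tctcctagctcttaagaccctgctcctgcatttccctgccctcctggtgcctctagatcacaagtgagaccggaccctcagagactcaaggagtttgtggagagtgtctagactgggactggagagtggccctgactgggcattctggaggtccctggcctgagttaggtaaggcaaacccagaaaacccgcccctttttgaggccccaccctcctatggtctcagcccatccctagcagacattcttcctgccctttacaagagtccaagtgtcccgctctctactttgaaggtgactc
Kng2, chr16:23029052-23029351, minus strand: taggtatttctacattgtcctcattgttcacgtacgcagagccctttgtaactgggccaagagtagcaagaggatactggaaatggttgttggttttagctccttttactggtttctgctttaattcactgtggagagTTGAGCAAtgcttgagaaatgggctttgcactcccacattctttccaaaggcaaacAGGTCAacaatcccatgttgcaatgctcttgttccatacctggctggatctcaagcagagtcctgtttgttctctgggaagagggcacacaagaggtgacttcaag
The Sorl1 window held 1 cyclic AMP element core, as do 20.8% of all 32851 promoter windows. The Kng2 window held a nuclear receptor core (in 16.3% of windows) and a C/EBP element (in 10.8%), and the Aspg window held none of the motifs. A second Sorl1 start on chromosome 9 from 42077164 to 42077463 held a C/EBP element. The windows of Otop1, Lgr6, Ankef1 and Ptger3 held none of these letters. The Sorl1 window was 72.3% G and C with 37 CpG pairs, against 45.3% and 2 CpG pairs for Kng2 and 55.3% and 3 for Aspg.

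Levels at 22 °C did not bear out enrichment in brown fat for the whole set. Within the table of 8 tissues, 6 of the 10 genes had their highest mean in iBAT: Otop1, Lgr6, Ptger3, Slc36a2, Mrap and Kcnk3. Levels in this paragraph and the next are CPM scaled over all libraries of a table, so they differ somewhat from the CPM of single comparisons further on. Otop1 stood furthest apart, with 309.2 ± 83.4 CPM (SD, n = 3) in iBAT and 9.51 CPM in ingSAT, the next tissue, a fold of 32.5. Lgr6 had 117.7 ± 89.6 CPM (SD, n = 3) in iBAT against 8.95 CPM in hypothalamus. Kcnk3 was 8.11-fold and Slc36a2 3.82-fold above ingSAT. For these 4 genes every iBAT library lay above every library of the next tissue. For Ptger3 (1.44-fold above ingSAT) and Mrap (1.18-fold) the iBAT and ingSAT libraries overlapped. Mrap also stood at 103 CPM in liver.

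The other 4 genes were higher elsewhere. Sorl1 ranked lowest, with iBAT the sixth of 8 tissues, at 92.1 ± 13.2 CPM (SD, n = 3) in iBAT, 466 ± 176 CPM in brain and 341 ± 31.2 CPM in spleen. In its own table bone marrow reached 620 ± 77.1 CPM (SD, n = 6). Aspg (319.8 CPM in liver, 235.3 CPM in iBAT) and Kng2 (289.4 CPM in liver, 73.1 CPM in iBAT) were highest in liver, and stood at 8.17 and 0.105 CPM in ingSAT. The brain means of Aspg, Kng2 and Mrap (32.8, 43.5 and 11.9 CPM) came from the library with hepatocyte markers. Ankef1 was highest in pgVAT at 344 ± 128 CPM (SD, n = 3), then ingSAT (227 CPM) and iBAT (208 CPM), and neighbours in this order overlapped. In the table of the warm experiment Ankef1 had only 11.5 CPM in iBAT at 22 °C, and the cause of the gap between the tables was not tested. Per kb of exon, which allows genes to be set side by side, iBAT held most of Slc36a2 (231 CPM per kb), then Mrap (121), Kcnk3 (98.8) and Otop1 (89.8), and least of Sorl1 (8.14).

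**Figure D1:**
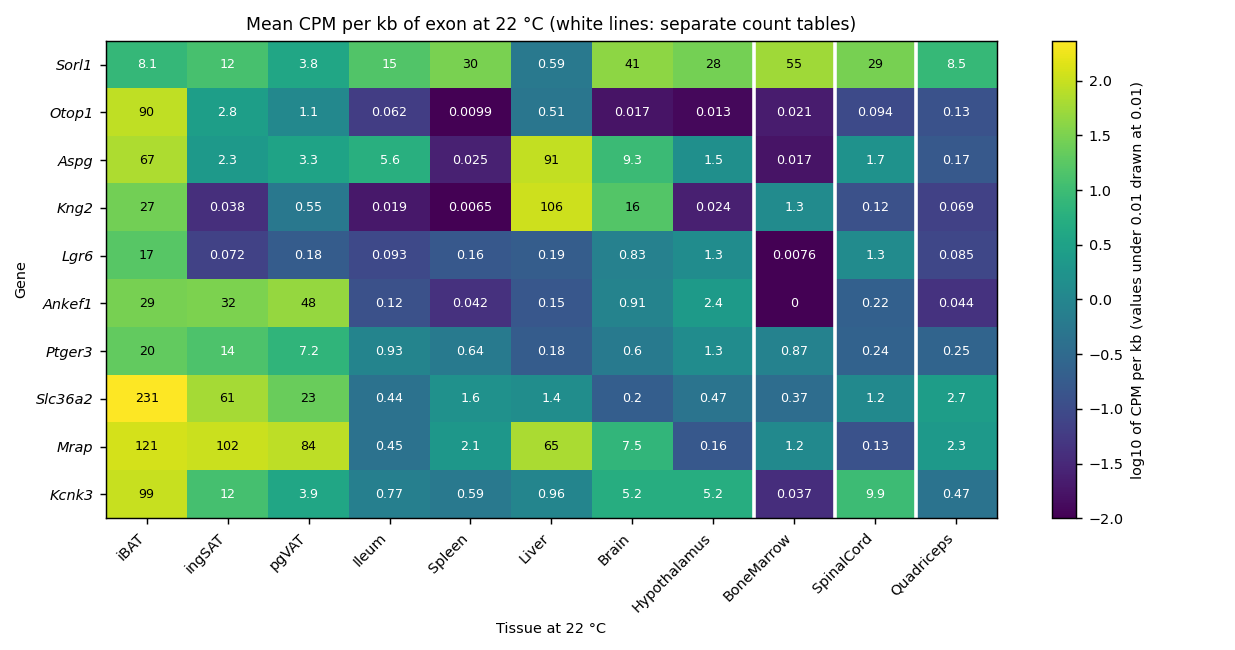
Mean level at 22 °C in CPM per kb of merged exon (colour on a log10 scale, value printed) for each gene (rows) in each tissue (columns, 3 libraries each, 6 for bone marrow and quadriceps, 5 for spinal cord). White lines part tables that were scaled separately. The top of the iBAT column is Slc36a2 at 231, and Kng2 has its largest value in liver. The largest printed value of Sorl1 is in bone marrow, a separate table that cannot be ranked against the others.

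At 10 °C iBAT showed higher Sorl1, Aspg, Kng2 and Mrap, with Otop1 higher at the study's own limits, and none of the 10 genes lower. The study's limits were an unadjusted p of at most 0.05 with a fold change above 1.5. At these limits 5 of the 10 genes were called, all higher, against 13.2% of all 12791 genes tested and 6.00% called higher. After Benjamini-Hochberg adjustment over all genes in edgeR's quasi-likelihood test 4 of 10 passed, against 11.3% of all genes. The median log2 fold change of the 10 genes was 0.44, and that of all genes was −0.02. Fold changes are log2 of 10 °C over 22 °C, with the standard error (SE) of the fit.

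Sorl1 had 89.0, 79.6 and 63.6 CPM at 22 °C and 398, 559 and 444 CPM at 10 °C. The lowest cold library was thus far above the highest control. Its log2 fold change was 2.59 (SE 0.18, adjusted p = 0.000194 in edgeR), the largest of the 10. Aspg had 236, 170 and 187 CPM at 22 °C and 623, 684 and 603 CPM at 10 °C, a rise of 1.69 on the log2 scale (SE 0.16, adjusted p = 0.000598 in edgeR). Kng2 rose by 1.18 (SE 0.17, adjusted p = 0.00376 in edgeR), from 62.1, 74.7 and 47.2 CPM to 124, 148 and 145 CPM. Its paralog Kng1 stayed at 0 to 2.04 CPM in these 6 libraries and was lower at 10 °C. Hepatocyte markers, whose tissue is the main source of kininogen, summed to 45.47 to 81.4 CPM at 22 °C and to 0.5089 to 1.386 CPM at 10 °C. Mrap had the tightest groups, 159, 172 and 149 CPM at 22 °C and 232, 245 and 247 CPM at 10 °C (log2 fold change 0.59, SE 0.11, adjusted p = 0.0120 in edgeR).

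Otop1 had 210, 234 and 330 CPM at 22 °C and 345, 439 and 382 CPM at 10 °C. The groups did not overlap, but only by the distance between 330 and 345 CPM, and the adjusted p was 0.0739 in edgeR. Otop1 lost the call at the study's limits without the 22 °C replicates 1 or 2 or the 10 °C replicate 2 (log2 fold change 0.46 to 0.81 over the 6 fits that leave out 1 library). Mrap lost it without the 22 °C replicate 3 or the 10 °C replicate 3, where its log2 fold change ran from 0.54 to 0.65 and sat at the 1.5-fold limit. Scaled by library size alone, which shifts the median of all genes to −0.18, Otop1 and Mrap were no longer called. Sorl1, Aspg and Kng2 were called in every alternative setting tried.

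The remaining 5 genes did not pass in iBAT at 10 °C. Slc36a2 had 534, 593 and 760 CPM at 22 °C and 421, 544 and 480 CPM at 10 °C, an overlap of 1 library (log2 fold change −0.39, SE 0.17, adjusted p = 0.179 in edgeR). Kcnk3 ran from 257 to 438 CPM at 22 °C and from 272 to 411 CPM at 10 °C. Lgr6 had 46.8, 65.6 and 180 CPM at 22 °C, a spread that 1 control library made, and 94.6 to 122 CPM at 10 °C. Without that library, replicate 3 at 22 °C, its log2 fold change was 0.97 and it was called. Ankef1 (−0.35, SE 0.23) and Ptger3 (0.29, SE 0.22) overlapped as well. Muscle RNA was lower in the cold iBAT libraries. Sorl1 was the member with the highest level in quadriceps at 22 °C (70.8 to 79.9 CPM). Quadriceps was counted in the table of the warm experiment, so this level cannot be set against iBAT at 10 °C. The mean of Sorl1 in iBAT at 22 °C was 45.7 CPM in that table and 92.1 CPM in the table of 8 tissues. The epididymis marker sum was 0 in the iBAT controls and 3.331 to 42.94 CPM at 10 °C. The part of either in the member values was not tested. In these bulk samples more RNA per brown adipocyte and more brown adipocytes cannot be told apart.

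At 34 °C the iBAT picture was broader: 7 of the 10 genes were called lower and Kng2 was called higher, against 19.4% of all 12331 genes called, 7.19% lower and 12.2% higher. After adjustment 8 passed, since Kcnk3 passed with less than a 1.5-fold change while Ptger3 did not (adjusted p = 0.0531 in edgeR). Of all genes 28.9% passed. The median over the 10 was −0.75 and over all genes 0.02, and scaling by library size alone moved the latter to 0.30.

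Aspg fell most, from 356, 385 and 334 CPM at 22 °C to 30.1, 18.3 and 48.7 CPM at 34 °C (log2 fold change −3.47, SE 0.34, adjusted p = 0.00137 in edgeR). Sorl1 fell from 56.8, 71.2 and 46.8 CPM to 8.15, 20.98 and 11.1 CPM (−2.12, SE 0.34). Otop1 fell by the same amount but with tighter groups, from 328, 275 and 287 CPM to 62.4, 72.2 and 70.3 CPM (−2.12, SE 0.11, adjusted p = 0.000654 in edgeR). For these 3 every warm library was far below the lowest control, though how many of all genes separate this way was not counted. They were called in every alternative setting tried.

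Lgr6, Slc36a2, Mrap and Kcnk3 fell less. Lgr6 went from 74.6, 64.3 and 63.0 CPM to 43.9, 36.7 and 29.9 CPM (−0.87, SE 0.15). Slc36a2 went from 1140, 890 and 965 CPM to 619, 643 and 686 CPM (−0.62, SE 0.12, adjusted p = 0.00996 in edgeR), and it lost the call at the study's limits without the 22 °C replicate 1. Mrap went from 174, 206 and 190 CPM to 119, 157 and 99.7 CPM (−0.60, SE 0.17, adjusted p = 0.0345 in edgeR), and 3 of the 6 fits without 1 library lost its call. Kcnk3 went from 657, 678 and 655 CPM to 534, 493 and 562 CPM (−0.33, SE 0.09, adjusted p = 0.0354 in edgeR). All 4 had groups that did not overlap, and the share of all genes for which this holds was not counted. Scaled by library size alone, Slc36a2 (−0.35) and Mrap (−0.33) were no longer called and Kcnk3 stood at −0.05, where none of the 3 passed after adjustment (adjusted p from 0.0514 to 0.705 in edgeR). Ptger3 overlapped by a hair, 43.8 to 65.8 CPM against 20.3 to 44.3 CPM, and Ankef1 showed 13.8 to 16.1 CPM against 11.5 to 18.96 CPM.

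Kng2 went the other way. It had 133, 145 and 163 CPM at 22 °C and 312, 263 and 314 CPM at 34 °C (log2 fold change 1.01, SE 0.12, adjusted p = 0.00213 in edgeR). It was thus higher than its own controls in both the cold and the warm experiment. Kng1 was at 0.110 to 0.192 CPM at 22 °C and 0.352 to 0.707 CPM at 34 °C, far below the Kng2 level. Ucp1 itself ran from 5494 to 8249 CPM at 22 °C and from 1231 to 1692 CPM at 34 °C, and Adipoq, an adipocyte hormone, from 1262 to 1546 CPM and from 1522 to 1810 CPM. The skeletal muscle sum was 3.311 and 9.61 CPM in 2 of the 22 °C libraries, 5300 CPM in the other and 1163 to 4241 CPM at 34 °C. The endothelial marker sum was 596.4 to 760.8 CPM at 22 °C and 804.8 to 1130 CPM at 34 °C, with 3 of 5 markers called higher. The fibroblast and adipocyte precursor sum was 439.7 to 586.7 CPM and 655.4 to 703.6 CPM, with 0 of 6 called. The part of these lists in the member values was not tested.

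**Figure D2:**
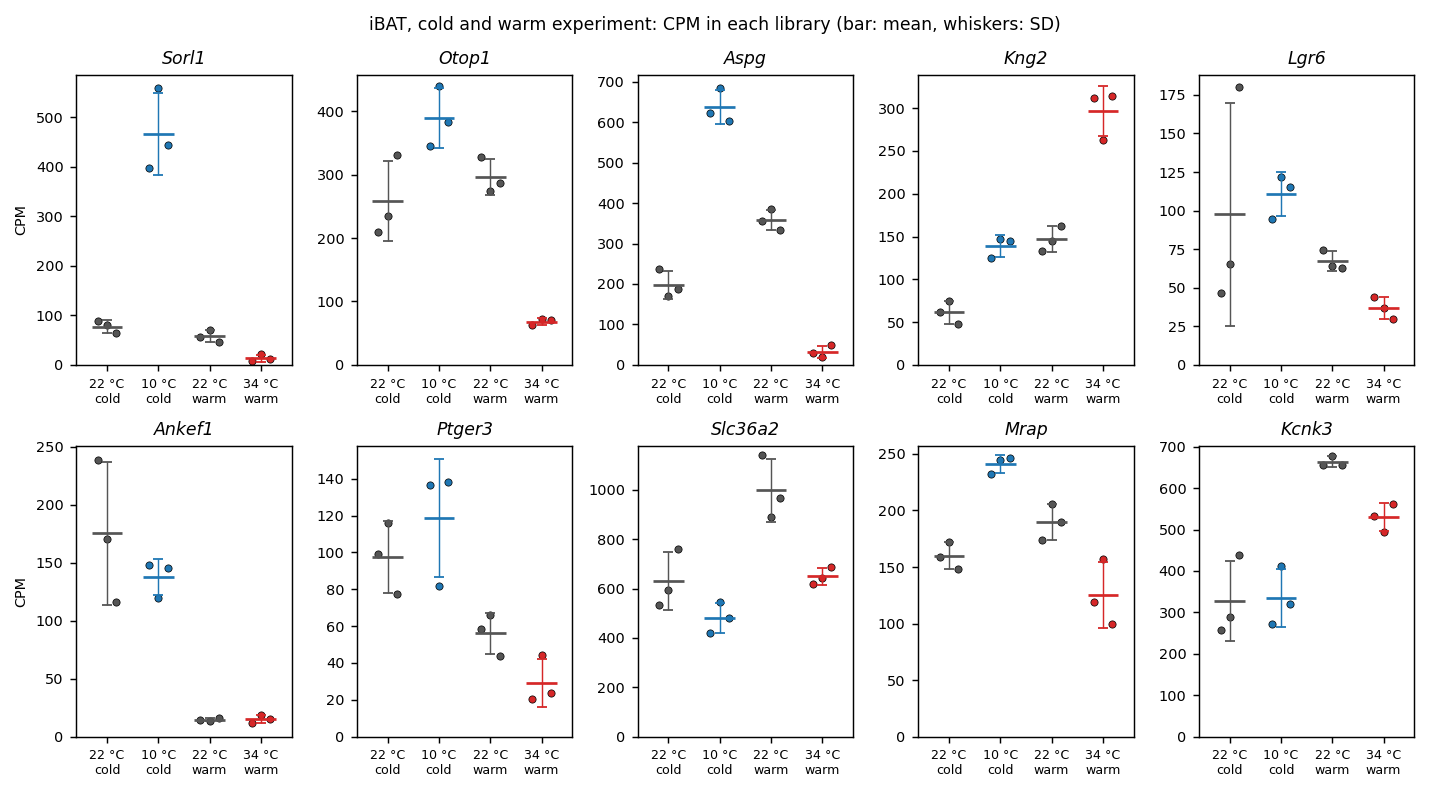
CPM (vertical axis, from 0) of each of the 10 genes in each iBAT library, with the mean as a bar and the SD as whiskers, for the cold experiment (22 and 10 °C) and the warm experiment (22 and 34 °C), which are separate tables. Sorl1 stands at 398 to 559 in the cold libraries and at 8.15 to 20.98 in the warm ones, and Kng2 is above its own controls in both experiments.

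In ingSAT at 10 °C Aspg, Otop1, Kng2 and Ptger3 rose, the first 3 from low levels. At the study's limits 8 of the 10 genes were called, all higher, against 16.3% of all 13982 genes tested and 7.20% called higher. After adjustment 4 passed, namely Aspg, Otop1, Kng2 and Ptger3, against 7.51% of all genes. Kng2 and Lgr6 met the expression filter (mean log2 CPM above 0) only through the cold libraries. Their means at 22 °C were 0.105 and 0.491 CPM on the scaling of the whole table. The median log2 fold change of the 10 genes was 1.10, and that of all genes was −0.01. The brown and beige marker sum went from 238 to 315.8 CPM at 22 °C to 2498 to 3154 CPM at 10 °C, with 9 of 12 markers called higher, and Ucp1 from 2.51, 6.81 and 15.6 CPM to 1121, 1277 and 1593 CPM. The skeletal muscle sum was 31.46 to 2012 CPM at 10 °C and 1322 to 3266 CPM at 22 °C, and the adipocyte precursor sum 1354 to 2424 CPM and 1848 to 6238 CPM. Their part in the member values was not tested. The adipocyte sum overlapped (33330 to 41210 CPM at 10 °C, 37080 to 42720 CPM at 22 °C).

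Kng2 was at 0, 2 and 3 counts in the 22 °C libraries, close to the limit of detection, and at 98, 169 and 102 counts at 10 °C. The ratio of the summed counts, adjusted for sequencing depth, was 74.3, with an exact 95% interval of 31.5 to 230 that covers counting error only, and the test over libraries gave an adjusted p of 0.00417 in edgeR. Kng1 had no count in any of these 6 libraries. Aspg went from 13.1, 7.80 and 5.61 CPM to 143, 134 and 103 CPM, a log2 fold change of 3.85 (SE 0.32, adjusted p = 0.00328 in edgeR). Otop1 went from 10.0, 13.7 and 7.06 CPM to 77.8, 74.4 and 75.9 CPM (2.89, SE 0.24, adjusted p = 0.00296 in edgeR). Every cold library of these 3 genes was several times its highest control, and how many of all genes separate this way was not counted. In iBAT at 22 °C Otop1 stood at 210 to 330 CPM, Aspg at 170 to 236 CPM and Kng2 at 47.2 to 74.7 CPM, on the scaling of that comparison.

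Ptger3 went from 106, 85.4 and 69.6 CPM to 284, 173 and 214 CPM (1.37, SE 0.23, adjusted p = 0.0203 in edgeR). Lgr6 was called with 0.0956, 1.35 and 0.132 CPM against 3.56, 5.54 and 5.85 CPM (adjusted p = 0.0615 in edgeR), a gain at low level. Sorl1 (90.1 to 189 CPM against 237 to 308 CPM), Slc36a2 (159 to 263 CPM against 330 to 440 CPM) and Kcnk3 (31.5 to 64.1 CPM against 81.2 to 107 CPM) were called with log2 fold changes of 0.83, 0.79 and 0.83 and adjusted p between 0.0720 and 0.112 in edgeR. Without the 10 °C replicate 1, Sorl1 and Kcnk3 lost their calls, at 0.72 and 0.71. Mrap (0.51, SE 0.21) did not overlap between groups but stayed under 1.5-fold, and Ankef1 overlapped (199 to 329 CPM against 298 to 315 CPM).

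The change at 10 °C differed between the depots for 5 of the 10 genes, by the interaction of depot and temperature in 1 edgeR fit over 12 libraries, at an adjusted p under 0.05 that 3.55% of all 13631 genes passed. Kng2 (a difference of 4.94 on the log2 scale, SE 0.52, adjusted p = 0.000751 in edgeR), Otop1 (2.32, SE 0.32) and Aspg (2.19, SE 0.35) rose more in ingSAT on that scale. The Kng2 value rests on 5 counts in all at 22 °C in ingSAT. In CPM, scaled over the whole table, the 3 gained more in iBAT. Aspg went from 235 to 772 CPM there and from 8.17 to 114 CPM in ingSAT. Otop1 went from 309 to 471 and from 9.51 to 68.4 CPM, and Kng2 from 73.1 to 168 and from 0.105 to 8.29 CPM. The difference of Slc36a2 (1.19, SE 0.30, adjusted p = 0.0489 in edgeR) joined opposite signs. Its log2 fold change was −0.39 in iBAT, where it was not called, and 0.79 in ingSAT. On the log2 scale Sorl1 was the only one of the 5 that changed more in iBAT (−1.75, SE 0.36, adjusted p = 0.0236 in edgeR). Leaving out 1 library at a time kept Kng2, Otop1 and Aspg in all 12 fits, while Sorl1 passed in 5 of the 12 and Slc36a2 in 3. With the replicate block Slc36a2 did not pass. For Mrap the difference was −0.07 (SE 0.24), and for Kcnk3, Lgr6, Ptger3 and Ankef1 it missed the threshold (adjusted p from 0.0956 to 0.260 in edgeR).

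In pgVAT at 10 °C 2 of the 9 genes tested were called, Sorl1 and Ptger3, both higher, against 7.94% of all 14856 genes and 4.46% called higher. None passed after adjustment, and neither did any other gene (0 of 14856 in edgeR, with 1207 at an unadjusted p under 0.05). Ptger3 had 46.1, 38.7 and 54.3 CPM at 22 °C and 107, 176 and 93.9 CPM at 10 °C (log2 fold change 1.44, SE 0.31, adjusted p = 0.593 in edgeR). Sorl1 had 66.3, 25.4 and 52.8 CPM and then 77.5, 141 and 165 CPM (1.41, SE 0.43). Both kept their calls whichever library was left out. Otop1, Kng2 and Lgr6 were at 12.6, 4.78 and 3.47 CPM in the 22 °C replicate 3 that carried Ucp1, and at 0.139 to 0.555 CPM in the other 2 controls. Kcnk3 was also highest there among the controls (33.01 CPM), and its log2 fold change moved from −0.11 to 0.73 without that library. The part of the epididymis RNA in 2 cold libraries was not tested. Without the cold library that lacks it (replicate 2), 4 genes were called, 3 higher and 1 lower. In that fit 23.4% of all genes were called, against 7.94% with all libraries.

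**Figure D3:**
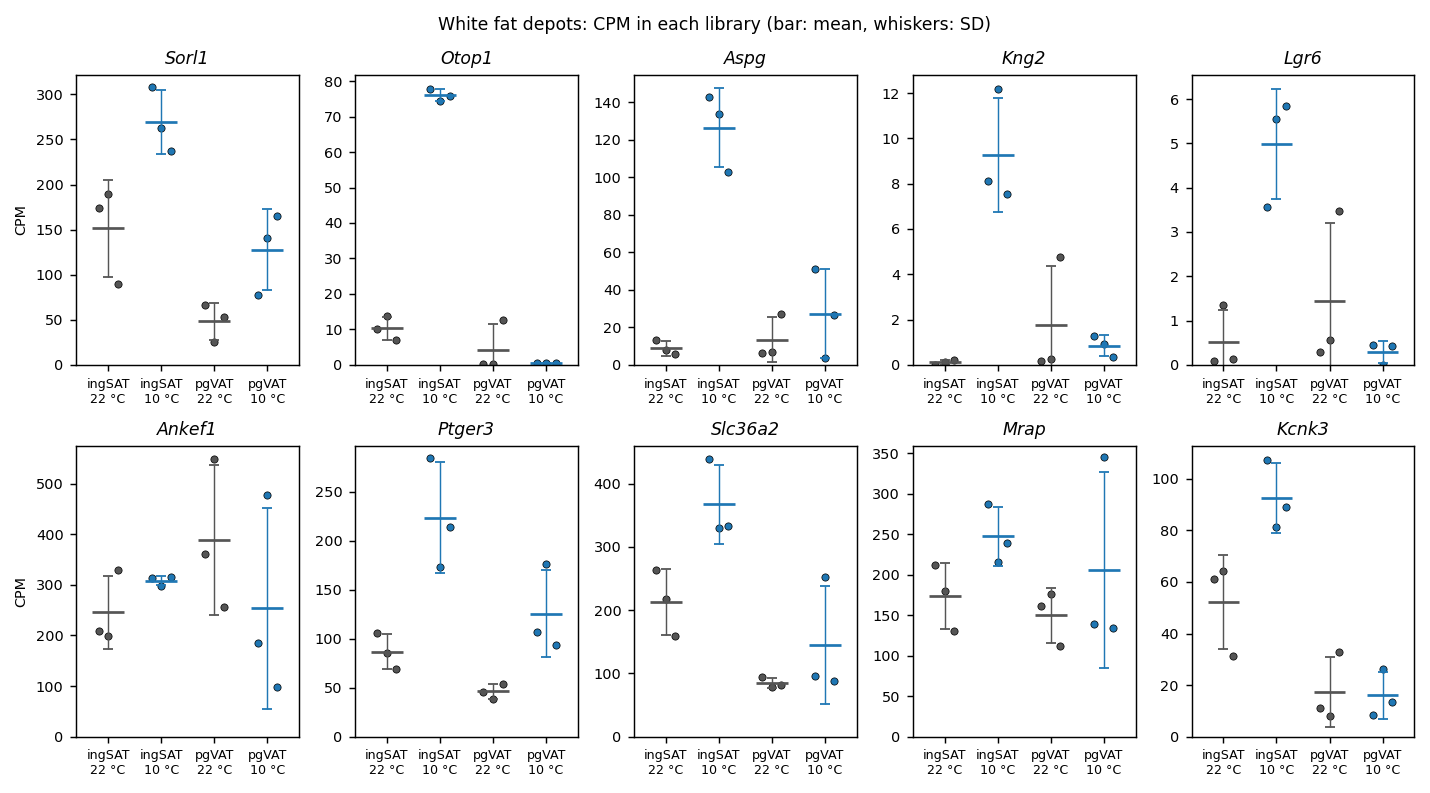
CPM (vertical axis, from 0) of each gene in each library of ingSAT and pgVAT at 22 and 10 °C, with the mean as a bar and the SD as whiskers. In ingSAT the cold libraries of Otop1 (74.4 to 77.8) and Aspg (103 to 143) lie well above the controls, while in pgVAT the single high control point of Otop1 is 12.6.

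In quadriceps at 10 °C 6 of the 7 genes tested were called, all higher, against 3.35% of all 11836 genes (2.70% called higher), and Aspg passed after adjustment, against 0.338% of all genes. All were at low level. Aspg had 0.121 to 1.31 CPM in the 6 libraries at 22 °C (median 0.316 CPM) and 10.2, 7.11 and 2.68 CPM at 10 °C (log2 fold change 3.80, SE 0.59, adjusted p = 0.0327 in edgeR). Otop1 had 4.45, 4.59 and 1.04 CPM at 10 °C and up to 1.25 CPM at 22 °C (3.24, SE 0.79, adjusted p = 0.115 in edgeR). Slc36a2 reached 28.1, 28.8 and 10.3 CPM against 4.25 to 13.05 CPM. Ptger3, Mrap and Kcnk3 followed with log2 fold changes of 1.87, 1.57 and 2.21 and adjusted p from 0.0815 to 0.120 in edgeR. Except for Aspg the groups overlapped, always because the same cold library was lowest and the same control, the QC1 library, was highest. Sorl1 stayed at 71.5 to 72.3 CPM against 70.8 to 79.9 CPM.

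Adipocyte and brown fat markers were read in the same quadriceps libraries. Ucp1 was at 121, 96.4 and 27.8 CPM in the cold libraries and at 0.0486 to 6.96 CPM at 22 °C, with the same low cold library and the same high control. The adipocyte marker sum overlapped between the groups, with 784.1 to 1712 CPM at 10 °C and 605.6 to 1224 CPM at 22 °C, and 6 of its 10 genes were called higher. Adipoq reached 65.4, 85.7 and 24.7 CPM against 19.4 to 64.6 CPM. The sum of the brown list, which holds genes such as Cox7a1 and Fabp3 that muscle uses too, overlapped as well. It was 908.7 to 1156 CPM at 10 °C and 925.4 to 1144 CPM at 22 °C, with 4 of 11 tested genes called higher. The part of adipocyte RNA in the quadriceps values was not tested. All 6 genes stayed called in each of the 9 fits that left out 1 library, and also against the 3 controls alone whose column names share a prefix with the cold libraries, a choice made after seeing the data.

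At 34 °C quadriceps had 3 of 5 tested genes called, all lower, against 1.25% of all 11725 genes (0.836% called lower), and none passed after adjustment (0 genes of all in edgeR, with 629 at an unadjusted p under 0.05). Slc36a2 had 2.81, 1.38 and 3.35 CPM against 4.13 to 12.6 CPM (−1.45, SE 0.36, adjusted p = 0.602 in edgeR). Mrap (−1.44, SE 0.47) and Kcnk3 (−1.38, SE 0.60) overlapped with their controls. Ucp1 had no count at 34 °C. Both quadriceps comparisons used the same 6 controls, so their opposite signs are not independent.

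**Figure D4:**
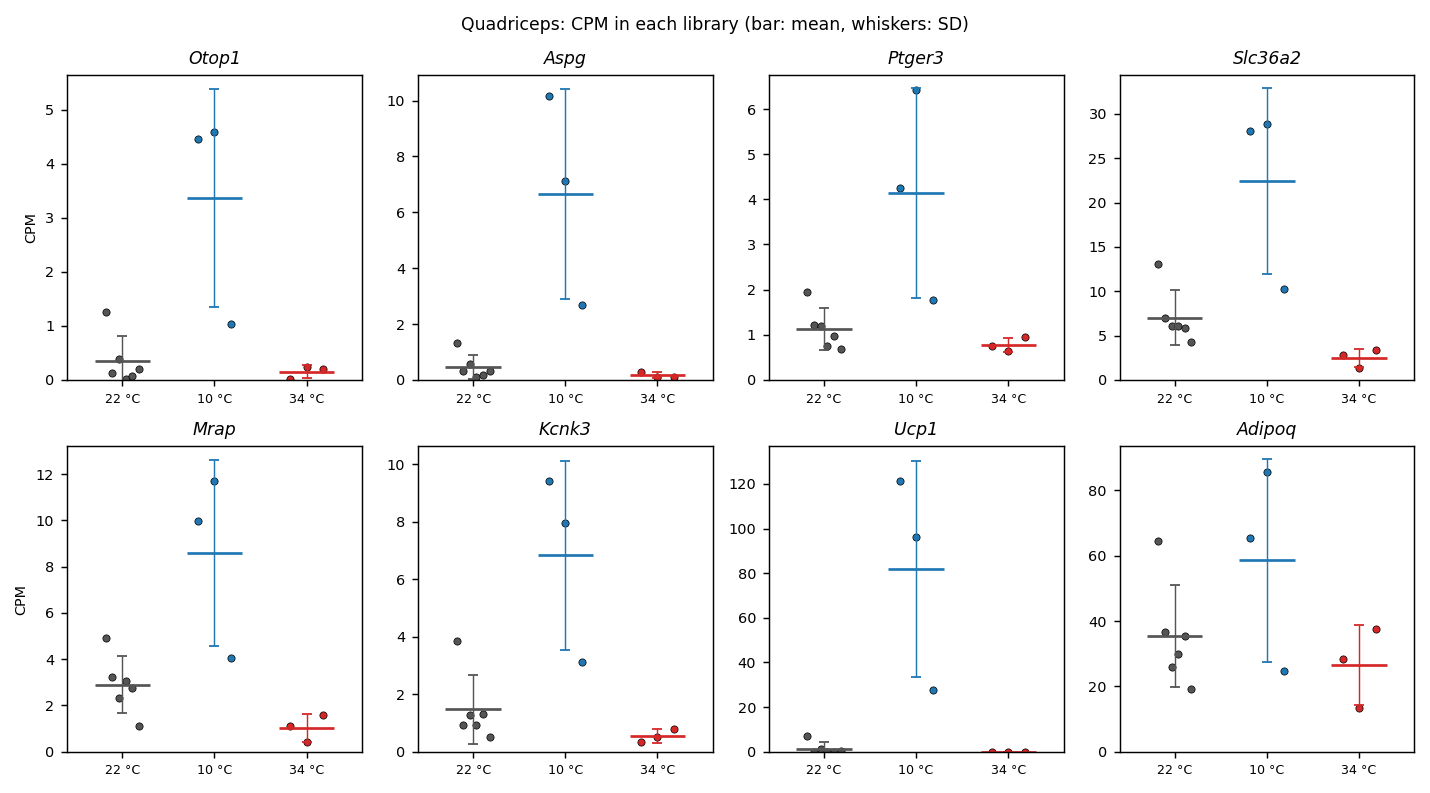
CPM (vertical axis, from 0) in each quadriceps library at 22 °C (6), 10 °C (3) and 34 °C (3), with the mean as a bar and the SD as whiskers, for the 6 genes called at 10 °C and for Ucp1 and Adipoq. Values at 34 °C carry the scaling of their own comparison. The same 2 cold libraries lead in every panel, and 1 control is highest in every panel.

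In the other 10 comparisons 8 calls were made at the study's limits, in brain, ileum and liver. The 3 calls in brain at 10 °C, against 2.72% of all genes (2.45% called lower), were Aspg, Kng2 and Mrap, all lower. The 22 °C library with hepatocyte markers held 117, 166 and 44.4 CPM of them, while the other 2 controls held at most 3.26, 0 and 0.536 CPM. Without it none of the 3 was called, and the 8 calls became 5. The count was also 5 when any one of the 10 °C brain libraries was left out. In ileum at 10 °C Ptger3 (7.11, 4.40 and 4.46 CPM against 11.6, 7.30 and 6.52 CPM), Slc36a2 (1.57, 0.988 and 1.71 CPM against 5.29, 4.64 and 2.13 CPM) and Mrap (1.11, 0.445 and 0.571 CPM against 5.61, 3.07 and 1.19 CPM) were called higher, against 2.71% of all genes (1.44% called higher), with adjusted p from 0.139 to 0.277 in edgeR. The Ptger3 groups overlapped, and its call was kept in 2 of the 6 fits that left out 1 library and lost when scaled by library size alone. The adipocyte marker sum there was 255 to 574.1 CPM at 10 °C and 168.4 to 267.3 CPM at 22 °C, and its part was not tested. In ileum at 34 °C Slc36a2 was called lower (−1.39, against 2.83% of all genes, 1.26% lower), and in liver at 34 °C Sorl1 was called higher (0.72, against 3.38%, 1.77% higher) at 0.860 to 1.79 CPM, a call kept in 3 of the 6 fits without 1 library.

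Sorl1 in bone marrow, which has a table of its own, fell by 0.39 on the log2 scale at 10 °C (SE 0.09, adjusted p = 0.0122 in edgeR, n = 6 each). It had 503.7 to 745.0 CPM at 22 °C and 381.7 to 555.4 CPM at 10 °C. The change was under the 1.5-fold limit, and 1.29% of all genes passed that limit together with the p limit. After adjustment 19% of all bone marrow genes passed. In spinal cord the 7 genes tested had log2 fold changes from −0.24 to 0.62, with 0.271% of all genes called. No member was called in hypothalamus (0.578% of all genes), spleen (2.68%), liver at 10 °C (3.28%) or brain at 34 °C (0.193%). In liver, the main site of Kng2 and Aspg, both were a little higher at 10 °C (log2 fold changes 0.32 and 0.25, SE 0.09 and 0.07, adjusted p 0.127 and 0.138 in edgeR) without overlap between groups, and Kng2 also at 34 °C (0.43, SE 0.11, adjusted p = 0.205 in edgeR). Sorl1 brain values at 22 °C were 610, 337 and 550 CPM, the lowest in the library with hepatocyte markers.

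**Figure D5:**
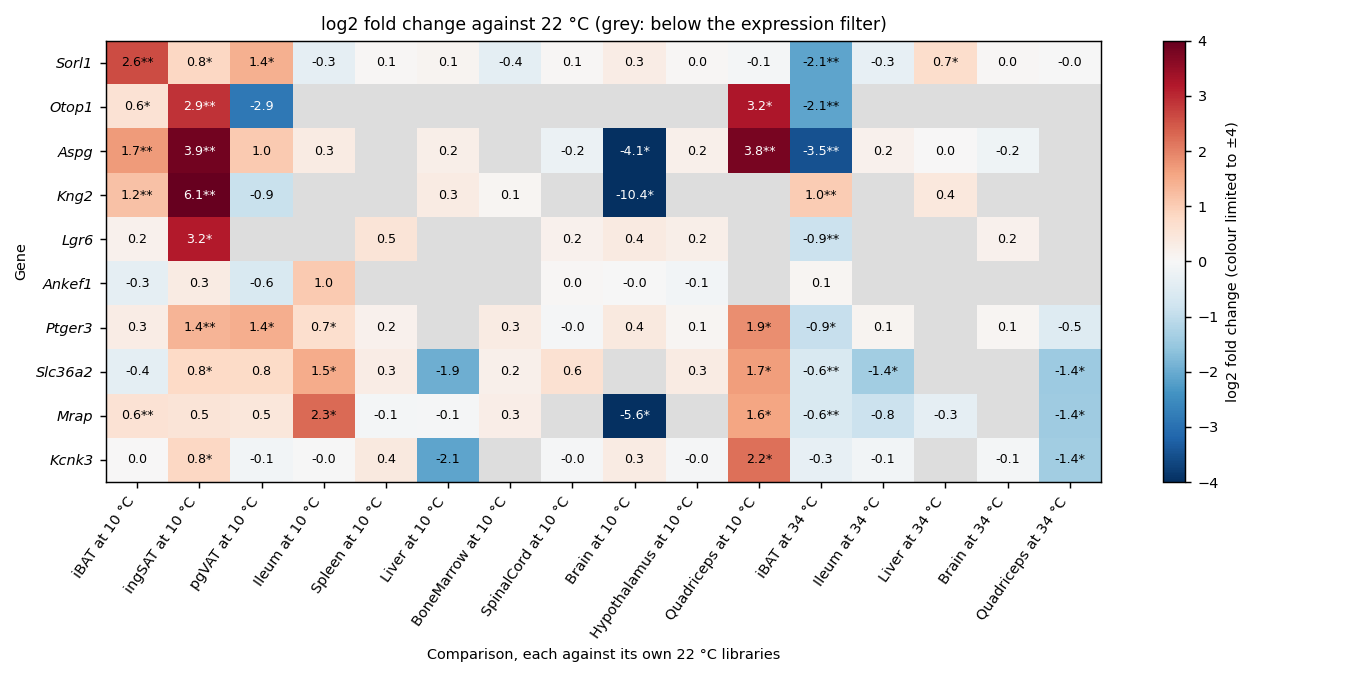
Log2 fold change against 22 °C (colour limited to ±4, value printed) of each gene (rows) in each of the 16 comparisons (columns). One star marks a call at the study's limits, a pair of stars one that also passed after adjustment, and grey a gene below the expression filter. Calls cluster in iBAT, ingSAT and quadriceps, and the 3 dark blue brain cells rest on 1 control library.

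Partners and paralogs of the members were read from a list of 58 genes. In iBAT at 10 °C 27 were tested and 5 called (13.2% of all genes were), with 4 passing after adjustment (11.3% of all genes). Rspo4, an R-spondin that binds Lgr receptors such as Lgr6, rose from 0.0417 to 0.780 CPM to between 4.96 and 6.17 CPM (log2 fold change 4.34, SE 0.56, adjusted p = 0.00239 in edgeR). Ptges, the synthase that makes prostaglandin E2, the ligand of Ptger3, rose from 10.0 to 13.7 CPM to between 26.3 and 38.0 CPM (1.32, SE 0.19). Slco2a1, which takes up prostaglandins, fell from 2.85 to 4.17 CPM to between 1.59 and 2.03 CPM (−1.003, SE 0.24). Sorcs2, a relative of Sorl1, rose by 0.94 (SE 0.23, adjusted p = 0.0304 in edgeR). Lgr6 and Ptger3 themselves did not pass there.

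At 34 °C 23 relatives were tested in iBAT, and 6 passed after adjustment, a share no higher than the 28.9% of all genes that did. Of these 5 are given. No relative was refitted under other settings. Ptger4, a prostaglandin E2 receptor that raises cyclic AMP, rose from 6.00 to 7.502 CPM to between 9.26 and 25.1 CPM (1.46, SE 0.34), and Ptgs1, a cyclooxygenase, by 0.86 (SE 0.19). Mc2r, the receptor that Mrap serves, rose by 0.69 (SE 0.21, adjusted p = 0.0484 in edgeR). Mrap was called lower there, a call lost when scaled by library size alone. Ptges2 fell by 0.62 (SE 0.11), and Kcnk2, a relative of Kcnk3, fell by 1.08 (SE 0.23). In ingSAT 6 of 33 (16.3% of all genes) and in pgVAT 6 of 36 (7.94% of all genes) were called at the study's limits, and none passed after adjustment.

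For each member the gene with the most similar mean log2 CPM over the 16 groups of the 8-tissue table was found among 15935 genes. These groups share tissues, so Pearson's r is a description only. Kng2 lay nearest to Elovl3, a fatty acid elongase (r = 0.983), Mrap to Pfkfb1 (0.983), Slc36a2 to Irs3 (0.981) and Ankef1 to Slc27a1 (0.989). The paper reports high Elovl3 expression in liver, the tissue where Kng2 was highest. Libraries with RNA of other tissues were kept in these groups. Aspg lay nearest to Mrpl27 (0.978), Kcnk3 to Nipsnap2 (0.976), Otop1 to Dnajc15 (0.967), Ptger3 to Rasl12 (0.963), Sorl1 to Zbtb3 (0.954) and Lgr6 to Mrpl3 (0.930). With Ucp1 the value was highest for Otop1 (0.951), then Slc36a2 (0.813) and Mrap (0.796), and it was −0.158 for Sorl1, whose level across tissues ran apart from Ucp1 although it changed most in iBAT at 10 °C.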

How the data were processed

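RNA of mouse tissues was sequenced in bulk. The authors mapped reads to mm10 and deposited raw counts per gene in 4 tables; the submitters' processing notes name STAR 2.5.3a, HTSeq 0.6p1 and Picard 1.141. Ensembl identifiers were matched to symbols through the annotation. Groups came from the sample labels and titles; replicates are separate libraries.

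The members and gene lists were chosen with earlier results of these data known, and named genes are the 10 members, their relatives with an adjusted p under 0.05 in a fat depot, the gene nearest to each member in pattern, and Ucp1, Adipoq and Kng1 for reference. For each tissue and temperature, a fit was made over the libraries of that comparison, keeping genes whose mean log2 CPM exceeded 0, with the quasi-likelihood test of edgeR 4.0.16 (R 4.3.3, two-sided) after TMM scaling, and p-values were adjusted over all genes tested by Benjamini-Hochberg. The difference between depots was an interaction term over iBAT and ingSAT. CPM are counts scaled by sequencing depth. Scripts were tested on simulated data. Alternatives were DESeq2 1.42.0, the exact test of edgeR, other scalings and filters, a replicate block and leaving out single libraries. Where libraries pooled mice, p-values measure the spread between pools. Counting intervals cover counting error only. Bone marrow and spinal cord were not refitted with single libraries left out. One relative is not reported here.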

Additional observations from a re-analysis of the deposited data

Results flagged for a closer look

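Sorl1, Otop1, Aspg, Kng2 and Slc36a2 changed differently in ingSAT and iBAT at 10 °C by the interaction test of edgeR. The ingSAT change minus the iBAT change on the log2 scale was −1.75 for Sorl1, 2.32 for Otop1, 2.19 for Aspg, 4.94 for Kng2 and 1.19 for Slc36a2.

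Of 29 sets of a gene in a group of 4 to 10 libraries, 4 held a library far from the others, and chance sets apart about 1 in 20. Slc36a2 had 0.717 CPM in bone marrow replicate 1 at 10 °C, against 1.38 to 1.69 CPM in the others. Sorl1 had 410 CPM in spinal cord replicate 4 at 10 °C, against 323 to 340 CPM. The QC1 quadriceps library at 22 °C had 13 CPM of Slc36a2 (others 4.25 to 6.94 CPM) and 3.85 CPM of Kcnk3 (others 0.514 to 1.30 CPM), and it also had the highest Ucp1 and Adipoq among the 6 controls.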

How the results depend on the processing

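With adjusted p in place of the study's limits, called members numbered 4 in ingSAT (8 at the limits) and 0 in pgVAT (2). They numbered 1 in quadriceps at 10 °C (6), 0 in quadriceps at 34 °C (3) and 1 over the other 10 comparisons (8). That last 1 was in bone marrow, where 19% of all genes passed. Of all genes 7.51% passed in ingSAT, 0% in pgVAT, 0.338% in quadriceps at 10 °C and 0% at 34 °C. Library size scaling gave 3 in iBAT at 10 °C (5), where 15.5% of all genes were called. It gave 6 in iBAT at 34 °C (8), with 28.4% of all genes, and 2 in quadriceps at 34 °C (3), with 1.09%. DESeq2 gave 5 over the other 10 comparisons, where 0.15% to 4.41% of all genes were called. Leaving out 1 library gave 4 to 5 in iBAT at 10 °C (11.9% to 15.1% of all genes called) and 6 to 8 at 34 °C (16.3% to 22.7%). It gave 6 to 9 in ingSAT (12.6% to 25.1%) and 2 to 4 in pgVAT (2.62% to 23.4%, both highest without the 10 °C replicate 2). Quadriceps had 6 at 10 °C (2.37% to 5.92%) and 2 to 3 at 34 °C (1.09% to 1.71%). The difference between depots gave 3 to 5, and the other 10 comparisons 5 to 10 (0.243% to 8.42% of all genes in the comparison refitted). The 10 came without replicate 1 of the 22 °C liver controls in the cold experiment, with Slc36a2 and Kcnk3 called lower (2.3% of all genes called). Without replicate 3, the liver control that carried Ucp1, 4 members were tested there and 0 called (5.24% of all genes).

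Of 735 fold changes under other settings or call rules 668 kept direction and side, 38 lost the call and 11 gained it. The other 18 changed sign, and none of these was called in the report. The 735 include the main fold change under the adjusted p rule for each of 51 pairs of gene and comparison. Such an entry can lose or gain a call but cannot change sign. Library size scaling turned Kcnk3 in iBAT at 10 °C to −0.13 and Sorl1 in quadriceps to 0.081 at 10 °C and 0.028 at 34 °C. Against controls of the same column prefix, a choice made after seeing the data, Sorl1 at 34 °C was 0.047. Without single libraries Lgr6 in iBAT at 10 °C ran from −0.16 to 0.97, Kcnk3 there from −0.13 to 0.29, Ankef1 in iBAT at 34 °C from −0.13 to 0.23, Mrap in pgVAT from −0.15 to 0.69, Kcnk3 there from −0.66 to 0.73 and Sorl1 in quadriceps at 34 °C from −0.0285 to 0.0112. The causes were not tested.

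Libraries with the same replicate number did not deviate together in every pair of any tissue (iBAT r from −0.127 to 0.429), so the numbers were not taken as a pairing. With the replicate block 5 members were called in iBAT (14% of all genes), 8 in ingSAT (16.1%) and 2 in pgVAT (5.45%). Over the other cold comparisons it was run on 4 were called (6 without it), where 0.341% to 3.71% of all genes were. Between depots 4 members differed, with the share of all genes counted in the main fit only, and Kng2 in pgVAT turned to 0.47. Low counts limit Kng2 in ingSAT and most members in quadriceps.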
